A study of Mus musculus with 11 samples.

Results

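The genes described are 10 regulators of the primitive streak and of the endoderm, fixed by name as Gsc, Lhx1, T, Mixl1, Eomes, Foxa2, Gata4, Gata6, Cer1 and Hhex. All probes annotated to these symbols were taken, which gave 11 probes for 9 of the 10 genes, out of 16593 genes named on the array. Mixl1 and Foxa2 had 2 probes each and the other 7 genes had 1. No annotated probe carried the symbol T or Tbxt, so T is not analysed here. Transcript levels were measured with Illumina MouseRef-8 v2 bead arrays in 6 kinds of male mouse stem cell culture, on 11 arrays. T9-EpiSC came from the epiblast stem cell line T9, kept on CF1 embryonic fibroblasts at medium density in the medium called UM, with Fgf2 withdrawn for 2 days, and was harvested without the fibroblasts (1 array). Epi-Sox2 came from the GOF18 line made to overexpress wild-type Sox2, kept in the conditioned medium CM. The line E3, also kept in CM, was sorted by flow cytometry on an Oct4-GFP reporter into EpiSC-GFP+ and EpiSC-GFP-. EpiSC are GOF18 epiblast stem cells without the added Sox2, and ESC are embryonic stem cells. The last 5 groups had 2 arrays each, labelled as biological replicates. The promoter that drives Sox2, and the culture of EpiSC and ESC, are not given in the sources used here. Each kind of epiblast stem cell stands for 1 line, so line, sorting and culture cannot be told apart between lines.

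The primitive streak is the region of the gastrulating embryo through which epiblast cells leave to form mesoderm and endoderm, and Nodal, Wnt and Bmp signals induce it. T (brachyury), Mixl1 and Eomes are transcription factors of the streak, Gsc and Lhx1 are homeobox factors of its anterior end and of the organizer, and Foxa2 and Hhex act in the endoderm. Cer1, unlike the others, encodes no transcription factor but a secreted inhibitor of Nodal, Bmp and Wnt made by anterior endoderm. Gata4 and Gata6 are zinc finger factors of primitive endoderm. Epiblast stem cells are known to express some streak genes at low level while still dividing as stem cells.

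Mean signal per array ran from 199.7 to 623, with ESC brightest (595 and 623), and 9250 to 11675 of 25697 probes were detected. Over the 13048 probes tested, which are not independent of each other, the r between replicates was 0.987 to 0.995. Marker genes followed the EpiSC and ESC labels. Of the 13 annotated naive pluripotency genes, 8 were detected on each EpiSC array and 12 on each ESC array. All 10 tested primed epiblast genes were higher in EpiSC than in ESC. These lists were chosen with earlier results known, and the other labels are not judged by them. The brightest Sox2 probe read 8.38 and 8.48 in Epi-Sox2, against 7.61 and 7.38 in EpiSC, and a dimmer one, ILMN_1248711, read 5.01 and 5.07, against 4.4 and 4.54 without detection. Epi-Sox2 was thus above EpiSC but not the highest group. The brightest probe read 9.31 and 9.23 in EpiSC-GFP+, 8.85 and 8.90 in EpiSC-GFP-, 8.97 and 8.86 in ESC and 8.58 in T9-EpiSC. The dimmer one read 9.85 on both ESC arrays and 5.41 in T9-EpiSC, and was not detected in either E3 fraction. Pou5f1 probe ILMN_1217100, for the gene of Oct4, read 13.02 and 12.97 in EpiSC-GFP+, against 13.39 and 13.37 in EpiSC-GFP-, so this probe was not lower in the reporter-negative fraction. The other Pou5f1 probe, ILMN_1252910, was nearly level, with 12.27 and 12.30 in EpiSC-GFP+ and 12.26 on both EpiSC-GFP- arrays. With 1 or 2 arrays a group, precision is limited by their number.

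In all groups together, 8 of the 9 measured genes were detected on at least 1 array, and Gata4 on none. A probe counts as detected where its detection p-value, the share of negative control beads as bright as it, was under 0.01. The lowest detection p-value of the Gata4 probe was 0.0627, on ESC replicate 2. Foxa2 probe ILMN_1229325 was also detected nowhere, with a lowest detection p-value of 0.164. Not detected means below the reach of these arrays and not absent. Hhex was the only member detected on all 11 arrays. Of the 11 probes, T9-EpiSC had 9 detected, each EpiSC array 7, each Epi-Sox2 array 2, each EpiSC-GFP+ array 1, each EpiSC-GFP- array 2, and the ESC arrays 4 and 3. The number of all detected probes was 11675 on the T9-EpiSC array, 11415 and 10745 in EpiSC, and 11305 and 11288 in Epi-Sox2. It was 10270 and 10315 in EpiSC-GFP+, 9571 and 9250 in EpiSC-GFP-, and 10748 and 10535 in ESC. The part of this number in the count of detected members was not tested. These are bulk samples, in which fewer cells of a type and less RNA per cell cannot be told apart.

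**Figure D1:**
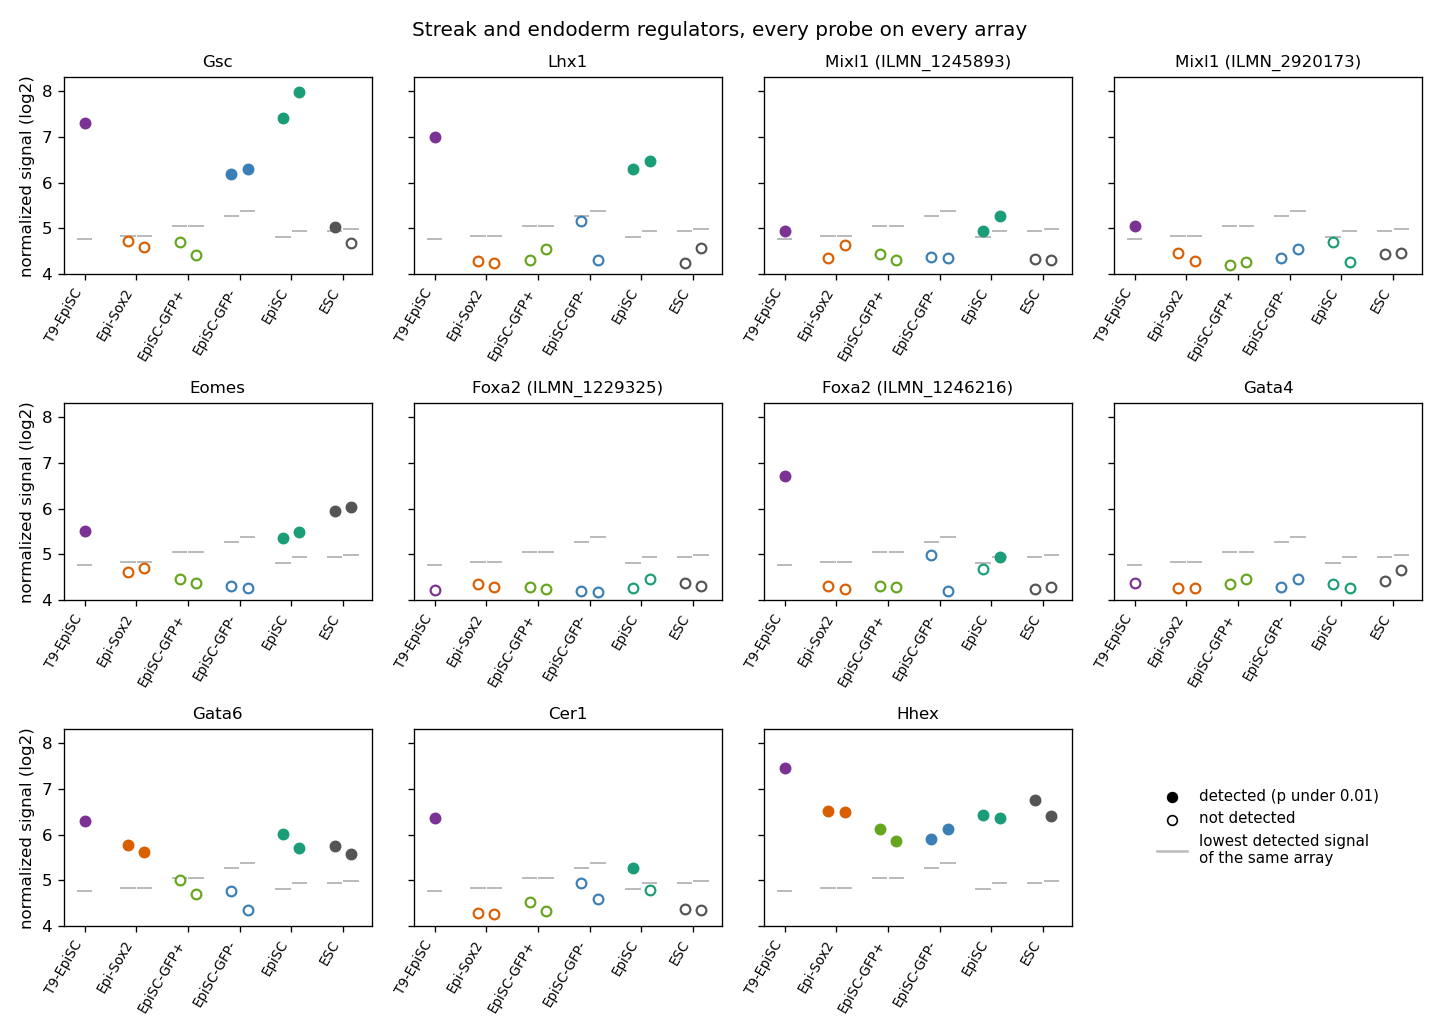
Normalized signal (log2) of each of the 11 probes on each of the 11 arrays, 1 panel per probe and 1 column per group, with filled points detected, open points not detected and grey ticks at the lowest detected signal of the same array. Gsc and Lhx1 stand clear of the ticks in T9-EpiSC and EpiSC, Hhex on every array, and Gata4 nowhere.

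Gsc and Lhx1, the homeobox genes of the anterior streak and organizer, had the widest spans of group means among the members, 3.14 and 2.73 log2 units. Gsc read 7.31 in T9-EpiSC, 4.72 and 4.60 in Epi-Sox2, 4.70 and 4.41 in EpiSC-GFP+, 6.18 and 6.29 in EpiSC-GFP-, 7.42 and 7.97 in EpiSC, and 5.04 and 4.69 in ESC (normalized log2 signal). EpiSC and T9-EpiSC were highest, EpiSC-GFP- lay between, and the other 3 groups overlapped near the lowest detected signal. Gsc was 2.83 ± 0.20 higher in EpiSC than in ESC (log2 difference ± SE, adjusted p = 1.24e-06), where 1 of 2 ESC arrays detected it. It was at least 7.28-fold lower in Epi-Sox2 (mean 4.66) than in EpiSC (mean 7.69, adjusted p = 1.76e-05). In EpiSC-GFP+ (mean 4.56) it was at least 2.26-fold lower than in EpiSC-GFP- (mean 6.23, adjusted p = 0.000557). Such a bound is given where no array of a group detected the probe, and divides the brighter group's mean by the lowest signal that counted as detected on the dimmer arrays, or by the probe's own where that was higher. These 3 Gsc calls held under every alternative and every left-out array that was run, but their sizes moved with the background step. The difference between EpiSC and ESC was 1.48 with uncorrected background and 4.24 with the authors' values, that between Epi-Sox2 and EpiSC -1.54 and -4.71, and that between EpiSC-GFP+ and EpiSC-GFP- -0.66 and -3.24. The folds and bounds of all members therefore hold for the correction used here only.

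Lhx1 read 7.0 in T9-EpiSC, 4.28 and 4.25 in Epi-Sox2, 4.32 and 4.54 in EpiSC-GFP+, 5.17 and 4.31 in EpiSC-GFP-, 6.30 and 6.46 in EpiSC, and 4.25 and 4.58 in ESC. Only the T9-EpiSC and EpiSC arrays detected it. Lhx1 thus entered the test through these arrays alone, which favoured a higher signal in EpiSC. It was at least 2.66-fold higher in EpiSC (mean 6.38) than in ESC (mean 4.41, adjusted p = 6.02e-05). Epi-Sox2 (mean 4.26) was at least 2.92-fold lower than EpiSC (adjusted p = 0.000644). Both calls were kept with no detection filter (adjusted p = 0.000204 and 0.00165). The E3 fractions differed in no call for Lhx1 (-0.31 ± 0.25, adjusted p = 0.396), and the EpiSC-GFP- arrays lay far apart. Without EpiSC-GFP- replicate 2, the dimmest array of the series, Lhx1 passed the test (-0.78, adjusted p = 0.0296), with 1 array left in that group, assumed to vary as the other groups do, and with no detection in either fraction. That array thus decided the call, and no size can be given for signals below detection.

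RefSeq promoter windows, from 250 bases before to 50 after the start site, were at hand for 7 of the 10 genes on build GRCm38.p6. Those of Gsc, Lhx1 and Cer1 are shown for their calls. These 3 genes were all called higher in EpiSC than in ESC and lower in Epi-Sox2 than in EpiSC. Both calls rest on the same EpiSC arrays and are not independent findings. The Cer1 call in Epi-Sox2 also depended on single arrays. Mixl1 had the same calls, but no window was at hand for it. The Gsc window is chr12:104473187-104473486, the Lhx1 window chr11:84525485-84525784 and the Cer1 window chr4:82885102-82885401, all on the minus strand and printed 5′ to 3′ along the gene. Capitals mark exact matches, on either strand, to the letters searched.
Gsc: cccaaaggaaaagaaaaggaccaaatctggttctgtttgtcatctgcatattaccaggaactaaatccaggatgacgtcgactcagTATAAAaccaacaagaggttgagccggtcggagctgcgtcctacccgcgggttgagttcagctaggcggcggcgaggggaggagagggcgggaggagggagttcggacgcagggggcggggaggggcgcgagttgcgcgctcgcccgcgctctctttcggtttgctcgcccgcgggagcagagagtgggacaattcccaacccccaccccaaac
Lhx1: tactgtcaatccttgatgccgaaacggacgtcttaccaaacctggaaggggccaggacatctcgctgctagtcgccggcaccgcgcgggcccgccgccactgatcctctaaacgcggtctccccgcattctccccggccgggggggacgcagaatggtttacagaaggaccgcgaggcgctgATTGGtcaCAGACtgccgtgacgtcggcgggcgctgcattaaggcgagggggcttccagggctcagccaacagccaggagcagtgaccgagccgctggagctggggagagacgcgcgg
Cer1: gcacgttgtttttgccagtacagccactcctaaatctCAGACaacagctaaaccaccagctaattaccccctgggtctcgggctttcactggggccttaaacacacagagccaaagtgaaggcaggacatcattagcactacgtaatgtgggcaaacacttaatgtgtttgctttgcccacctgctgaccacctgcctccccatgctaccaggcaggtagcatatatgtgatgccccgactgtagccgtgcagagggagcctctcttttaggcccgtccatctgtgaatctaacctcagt

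The letters searched were TGTGGATT for FOXH1, the partner of the Smad proteins in Nodal signalling, CTTTGA for TCF/LEF, the Wnt effectors, TAATCC for the homeodomain type that Gsc and Otx2 bind, AGGTGT for T-box factors, TGTTTAC for FOXA factors, GTCTG for SMAD proteins, TATAAA for the basal promoter box and CCAAT for the box that NF-Y binds, of which the FOXH1 and homeodomain letters can overlap. Gsc had 1 match, to the letters of the basal promoter box at -164. In Lhx1 the NF-Y letters matched at -68 and the SMAD letters at -60. Cer1 had a SMAD match at -213. Of all 32851 windows of this length, 13.6% held the basal promoter letters, 37.4% the NF-Y letters and 49.6% the SMAD letters, so each of these matches is common. The FOXH1 letters were in 0.855% of all windows, the FOXA letters in 3.65%, the homeodomain letters in 7.06%, the T-box letters in 13.7% and the TCF/LEF letters in 16%. None of these 5 was in the 3 windows, which says only that these letters are not there. The Gsc and Lhx1 windows held 25 and 31 CpG dinucleotides and the Cer1 window 6, beside a median of 7 over all windows.

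Of the streak factors, Mixl1 was faint and Eomes followed another order than Gsc. Mixl1 probe ILMN_1245893 read 4.95 in T9-EpiSC, 4.36 and 4.63 in Epi-Sox2, 4.44 and 4.31 in EpiSC-GFP+, 4.38 and 4.35 in EpiSC-GFP-, 4.95 and 5.26 in EpiSC, and 4.34 and 4.32 in ESC. Again only T9-EpiSC and EpiSC were detected. Mixl1 too entered the test through these arrays alone, which favoured a higher signal in EpiSC. Mixl1 was at least 1.1-fold higher in EpiSC (mean 5.10) than in ESC (mean 4.33, adjusted p = 0.0012). It was at least 1.21-fold lower in Epi-Sox2 (mean 4.50) than in EpiSC (adjusted p = 0.0224). Both calls were kept with no detection filter (adjusted p = 0.00163 and 0.0281). The second call ended without EpiSC replicate 2 (adjusted p = 0.0838), without Epi-Sox2 replicate 1 (0.154), at an offset of 50 (0.0583) and with uncorrected background (0.1). The other Mixl1 probe, ILMN_2920173, was detected in T9-EpiSC alone (5.05) and did not pass the filter.

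Eomes read 5.50 in T9-EpiSC, 4.62 and 4.70 in Epi-Sox2, 4.46 and 4.38 in EpiSC-GFP+, 4.31 and 4.26 in EpiSC-GFP-, 5.35 and 5.48 in EpiSC, and 5.95 and 6.03 in ESC. It was the only member called lower in EpiSC than in ESC (-0.58 ± 0.12, adjusted p = 0.00208), and the groups did not overlap. Before correction its mean bead intensities were 120.3 and 107.0 in EpiSC, against 223.4 and 219.6 in ESC, where whole arrays were brighter (median intensities of 101 and 90.2, against 129 and 126). In Epi-Sox2 (mean 4.66) Eomes was at least 1.5-fold lower than in EpiSC (mean 5.41, adjusted p = 0.00365). It was not detected in either E3 fraction and was at least 1.17-fold lower in the fractions together (mean 4.35) than in EpiSC (adjusted p = 8.24e-05). All 3 calls held under every alternative and left-out array. Eomes thus had its highest level in ESC, in which Gsc and Lhx1 were at or near background.

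The endoderm genes Foxa2 and Cer1 were highest in T9-EpiSC. Foxa2 probe ILMN_1246216 read 6.72 in T9-EpiSC, 4.31 and 4.25 in Epi-Sox2, 4.32 and 4.29 in EpiSC-GFP+, 4.98 and 4.21 in EpiSC-GFP-, 4.69 and 4.95 in EpiSC, and 4.25 and 4.28 in ESC. Beside T9-EpiSC, 1 EpiSC array detected it. The difference between EpiSC and ESC passed narrowly (0.56 ± 0.22, adjusted p = 0.0424), with no bound above 1. That call ended without either ESC array (adjusted p = 0.145 and 0.122), without EpiSC replicate 1 (0.0575), at an offset of 50 (0.086), with uncorrected background (0.0504), with the authors' values (0.0596) and with no detection filter (0.0775), and without EpiSC replicate 2 the probe was not tested. Foxa2 in Epi-Sox2 (mean 4.28) did not pass against EpiSC (mean 4.82, adjusted p = 0.113). The other Foxa2 probe read 4.22 in T9-EpiSC and was not detected there, so the high signal rests on 1 of 2 probes.

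Cer1 read 6.37 in T9-EpiSC, 4.28 and 4.27 in Epi-Sox2, 4.53 and 4.34 in EpiSC-GFP+, 4.95 and 4.60 in EpiSC-GFP-, 5.26 and 4.80 in EpiSC, and 4.38 and 4.35 in ESC. It was at least 1.04-fold higher in EpiSC (mean 5.03, 1 of 2 arrays detected) than in ESC (mean 4.37, adjusted p = 0.00757). In Epi-Sox2 (mean 4.28) it was at least 1.15-fold lower than in EpiSC (adjusted p = 0.0183). The call in Epi-Sox2 ended without either array of that group (adjusted p = 0.0918 and 0.083), and without EpiSC replicate 1 Cer1 was not tested. Cer1 and Foxa2 passed the filter on 1 EpiSC array each and on T9-EpiSC, and so could not be tested without T9-EpiSC. The filter thus favoured a higher signal in EpiSC for both genes. With no detection filter both Cer1 calls were kept (adjusted p = 0.0126 against ESC and 0.0282 in Epi-Sox2).

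Hhex, a homeobox factor of anterior endoderm and of the blood and liver lineages, was above background in every group. It read 7.45 in T9-EpiSC, 6.52 and 6.50 in Epi-Sox2, 6.12 and 5.87 in EpiSC-GFP+, 5.91 and 6.13 in EpiSC-GFP-, 6.42 and 6.37 in EpiSC, and 6.75 and 6.40 in ESC. T9-EpiSC lay above all other 10 arrays. Neither EpiSC against ESC (-0.18 ± 0.16, adjusted p = 0.338) nor Epi-Sox2 against EpiSC (0.12 ± 0.16, adjusted p = 0.662) passed. The E3 fractions together were lower than EpiSC by a narrow call (-0.39 ± 0.14, adjusted p = 0.0475), which ended with uncorrected background (0.0621), with the authors' values (0.0585), with no detection filter (0.0658) and without EpiSC replicate 1 (0.156), EpiSC replicate 2 (0.115), EpiSC-GFP- replicate 1 (0.109) or EpiSC-GFP+ replicate 2 (0.121).

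Gata6, a factor of primitive endoderm and of heart mesoderm, was detected in all groups but the E3 fractions. It read 6.30 in T9-EpiSC, 5.77 and 5.62 in Epi-Sox2, 5.01 and 4.71 in EpiSC-GFP+, 4.76 and 4.35 in EpiSC-GFP-, 6.02 and 5.71 in EpiSC, and 5.75 and 5.57 in ESC. The fractions together (mean 4.71) were at least 1.6-fold lower than EpiSC (mean 5.87, adjusted p = 0.000444), and the groups did not overlap. EpiSC and ESC differed by 0.21 ± 0.19 (adjusted p = 0.346) and Epi-Sox2 and EpiSC by -0.17 ± 0.19 (adjusted p = 0.57). Fewer probes of all kinds were detected in the fractions (10270 and 10315 in EpiSC-GFP+, 9571 and 9250 in EpiSC-GFP-) than in EpiSC (11415 and 10745), and the part of this in the low Gata6 and Eomes signals was not tested. Gata4, the other GATA factor, read between 4.26 and 4.65 on all arrays, without detection.

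The first comparison asked how these regulators differ between epiblast and embryonic stem cells. In EpiSC, Gsc, Lhx1, Mixl1, Foxa2 and Cer1 were higher than in ESC and Eomes was lower, while Gata6 and Hhex did not pass. That is 5 of the 8 tested probes higher and 1 lower, beside 37.3% of all 13048 tested probes higher and 27.9% lower. The median difference over the 8 probes was 0.61 log2 units, and 0.15 over all tested probes. With cyclic loess the median over all probes was -0.04, and 46.4% of all calls were higher in EpiSC, against 57.2% with quantile normalization, with all 6 member calls kept and Hhex lower as well (-0.47, adjusted p = 0.025). Lhx1, Mixl1, Foxa2 and Cer1 passed the filter through EpiSC and T9-EpiSC arrays alone, so the filter itself favoured a higher signal in EpiSC for these 4. Nothing is read from the count or the median against all probes, here or in the other comparisons with EpiSC.

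The second comparison set GOF18 cells with added Sox2 against those without. It shares the EpiSC arrays with the first comparison, so the calls of both are not independent. Gsc, Lhx1, Mixl1, Eomes and Cer1 were lower in Epi-Sox2 than in EpiSC, and none was higher. These are 5 of 8 lower and 0 of 8 higher, beside 8.28% of all tested probes lower and 8.96% higher. The median difference was -0.68 for the 8 probes and -0.02 over all, and nothing is read from this contrast, since Lhx1, Mixl1, Foxa2 and Cer1 were tested through EpiSC and T9-EpiSC arrays alone. Naive pluripotency genes went the other way: 11 of the 12 tested were higher in Epi-Sox2 (median 1.64), with summed signals of 10840 to 11420 in Epi-Sox2, against 1255 to 1299 in EpiSC. Their part in the members' levels was not tested. Without Epi-Sox2 replicate 1 the count was 3, with Gsc, Lhx1 and Eomes still lower. Epi-Sox2 set directly against ESC had 1 member lower, Eomes (at least 2.24-fold, adjusted p = 7.19e-06), and 0 higher, beside 27.3% and 36.6% of all probes. Both comparisons use the Epi-Sox2 arrays and are given side by side.

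The third comparison set the reporter fractions of E3 against each other. Gsc alone differed, being lower in EpiSC-GFP+, so that 1 of 8 was lower and 0 higher, beside 12.2% of all tested probes lower and 12.2% higher. A share of 1 in 8 is near that background. Of the 12 naive pluripotency genes 11 were higher in EpiSC-GFP+ (median 2.26), with summed signals of 29160 to 29460 in EpiSC-GFP+, against 3202 to 3317 in EpiSC-GFP-, and their part in the low Gsc signal was not tested. Without EpiSC-GFP- replicate 2 the count was 3, with Lhx1 and Foxa2 (adjusted p = 0.0256) also past the test. On that array Lhx1, Foxa2 and Cer1 read 4.31, 4.21 and 4.60, and on EpiSC-GFP- replicate 1 they read 5.17, 4.98 and 4.95, all without detection.

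Against ESC, Eomes, Gata6 and Hhex were called lower in each fraction. In EpiSC-GFP+ these 3 were lower (at least 1.91-fold, at least 1.52-fold and -0.58) and 0 members were higher, beside 28.6% of all probes lower and 39.6% higher. In EpiSC-GFP- the same 3 were lower (at least 1.59-fold, at least 1.26-fold and -0.56) and Gsc was higher (1.37 ± 0.20, adjusted p = 0.00014), beside 31.1% lower and 40.5% higher. A share of 3 in 8 lower is near the shares of all probes called lower. The 2 comparisons share the ESC arrays, so the same calls in both are not independent findings. The Hhex calls ended without ESC replicate 1 (adjusted p = 0.0864 in EpiSC-GFP+ and 0.101 in EpiSC-GFP-), without EpiSC-GFP+ replicate 2 (0.0659) and without EpiSC-GFP- replicate 1 (0.067). The count in EpiSC-GFP- was 7 without its replicate 2 and with cyclic loess.

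The E3 fractions together, set against EpiSC of the GOF18 line, had 6 of 8 members lower and 0 higher, beside 20.3% of all probes lower and 18.4% higher. Lhx1 and Mixl1, and Foxa2 and Cer1 among the rest, were tested through EpiSC and T9-EpiSC arrays alone, so nothing is read from the count against that background. Naive pluripotency genes again went the other way, 11 of 12 being higher in the fractions together (median 1.71), and their part in the members' levels was not tested. Gsc (-2.30 ± 0.17, adjusted p = 1.88e-05), Lhx1 (at least 2.28-fold), Eomes, Gata6, Mixl1 (-0.73, with no bound above 1) and Hhex made up the 6. The Gsc value averages 2 unlike fractions, as Gsc was detected in EpiSC-GFP- and not in EpiSC-GFP+. Foxa2 (adjusted p = 0.142) and Cer1 (0.0507) did not pass. Without EpiSC-GFP- replicate 1 both did (0.00709 and 0.0257), and Cer1 also without EpiSC replicate 2 (0.0178), with cyclic loess (0.0495) and with 1 probe per gene (0.0477).

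**Figure D2:**
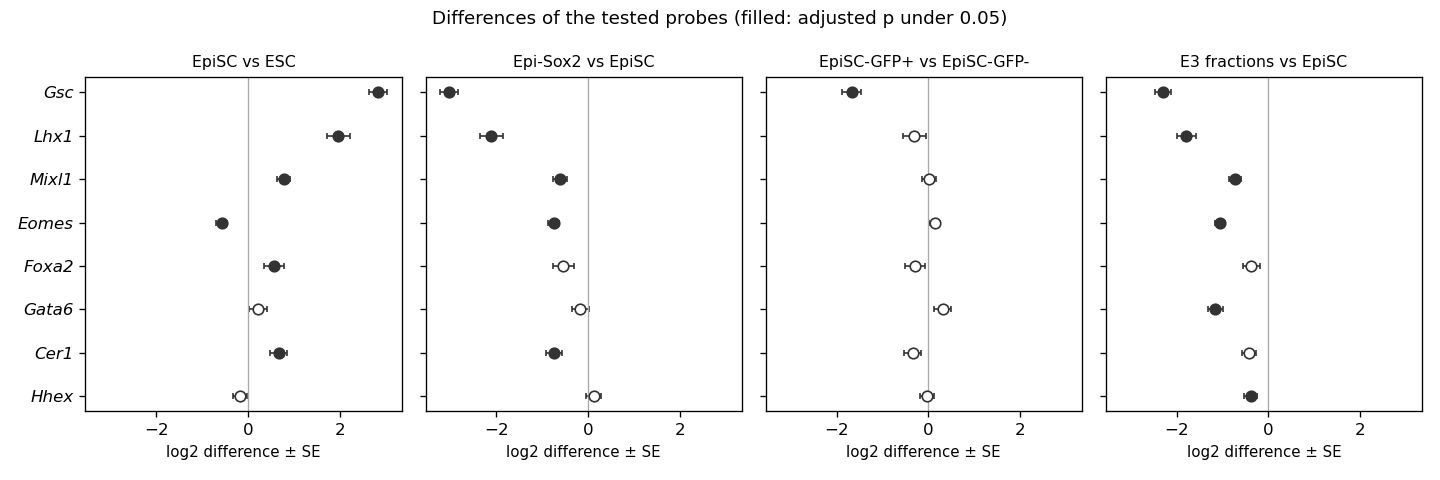
Log2 difference ± SE of the 8 tested probes (rows) in 4 comparisons (panels), the first-named group minus the second, with filled points at an adjusted p under 0.05. Gsc and Lhx1 lie to the right in EpiSC against ESC. They lie to the left in Epi-Sox2 and the E3 fractions against EpiSC, comparisons that share the EpiSC arrays with the first. Gsc alone is filled between the reporter fractions.

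Other genes of the same tissues and pathways were taken from lists written with the study's earlier results known. The lists overlap: Nodal and Fst count in the streak and the Nodal pathway lists. Lefty1 and Lefty2 count in the organizer and the Nodal pathway lists. Of 17 tested streak and mesoderm genes, 6 were higher and 8 lower in EpiSC than in ESC, with a median of -0.30. Over all tested probes 37.3% were higher and 27.9% lower, with a median of 0.15. The signal genes Fgf8 (at least 17.1-fold) and Wnt8a (at least 13.7-fold) were higher. Tbx3 (at least 18.8-fold), a factor that naive cells also use, and the posterior homeobox gene Cdx1 (at least 8.56-fold) were lower. Most of the higher streak genes were not detected in ESC, and most of the lower ones not in EpiSC. The endoderm and Nodal lists below also hold genes called without detection in EpiSC or in ESC. The filter thus bears on these counts and medians, and nothing is read from them against all probes. Of 7 organizer, node and anterior endoderm genes 5 were higher and 1 lower, with a median of 2.09, led by Otx2 (5.33), Krt19 (at least 3.55-fold), the Nodal inhibitor Lefty1 (2.24) and the Bmp inhibitor Chrd (at least 3.2-fold). Only these 7 of the 15 annotated genes passed the filter. Krt19, Chrd and Fzd8 passed it without detection in ESC, so it favoured a higher signal in EpiSC for them, and nothing is read from this count or median. Of 19 definitive and extraembryonic endoderm genes 9 were higher and 8 lower, with a median of -0.04. Trh (2.59) and the claudin Cldn6 (2.50) were higher and the basement membrane genes Lamb1 (at least 4.27-fold) and Nid1 (at least 3.8-fold) lower. Otx2 and Cldn6 are also on the list of primed epiblast genes, so neither speaks for organizer or endoderm alone. Of 19 Nodal and activin pathway genes 10 were higher and 6 lower (median 0.58), with the co-receptor Tdgf1 (-2.98) and the activin subunit Inhbb (at least 5.84-fold) lower and the activin inhibitor Fst (at least 4.65-fold) higher.

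In Epi-Sox2 against EpiSC the same lists had called genes in both directions, beside 8.96% of all tested probes higher and 8.28% lower. Among the 17 streak genes 3 were lower and 2 higher (median -0.07), with Fgf8 (-3.44) and Wnt8a (-1.34) lower and Tbx3 (at least 1.25-fold) and Bmp4 (0.87) higher. Chrd (-1.22) and Otx2 (-0.63) were lower and Lefty2 (2.31) higher among the 7 organizer and anterior endoderm genes (median -0.03), where 4 did not pass. Of the 19 endoderm genes 5 were higher and 2 lower (median 0.12), the higher ones including Apoe (1.59), Col4a2 (1.32), Dab2 (0.97) and Lama1 (0.90). In the Nodal pathway 2 of 19 were lower, Foxh1 (-1.03), the transcriptional partner of the Smad proteins, and the ligand gene Gdf3 (-0.56), and 1, Lefty2, was higher (median 0.17). The Nodal gene itself differed by -0.03 and did not pass.

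Between the fractions of E3, EpiSC-GFP+ had 4 of 17 streak genes lower and 2 higher than EpiSC-GFP- (median -0.16). Over all tested probes 12.2% were lower and 12.2% higher. Wnt8a (-2.55), Fgf8 (-1.77) and Fst (-1.63) were lower, and Tbx3 (at least 2.13-fold) was higher. Of the organizer and anterior endoderm genes 3 of 7 were lower, Krt19 (-1.62), Chrd (-1.44) and Lefty1 (-0.90), and Lefty2 (0.48) was higher (median -0.07). Of 19 endoderm genes 3 were lower, Foxa3 (-1.09), Trh (-1.09) and Cldn6 (-0.79), and 2 were higher, among them Nid1 (at least 2.16-fold), with a median of 0.10. Of 19 Nodal pathway genes 3 were lower and 3 higher (median -0.21), with Acvr2b (-0.60), an activin receptor gene, lower and Trim33 (1.01), a Smad4 regulator, higher. The median over all tested probes was -0.01 here and -0.02 in Epi-Sox2 against EpiSC.

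**Figure D3:**
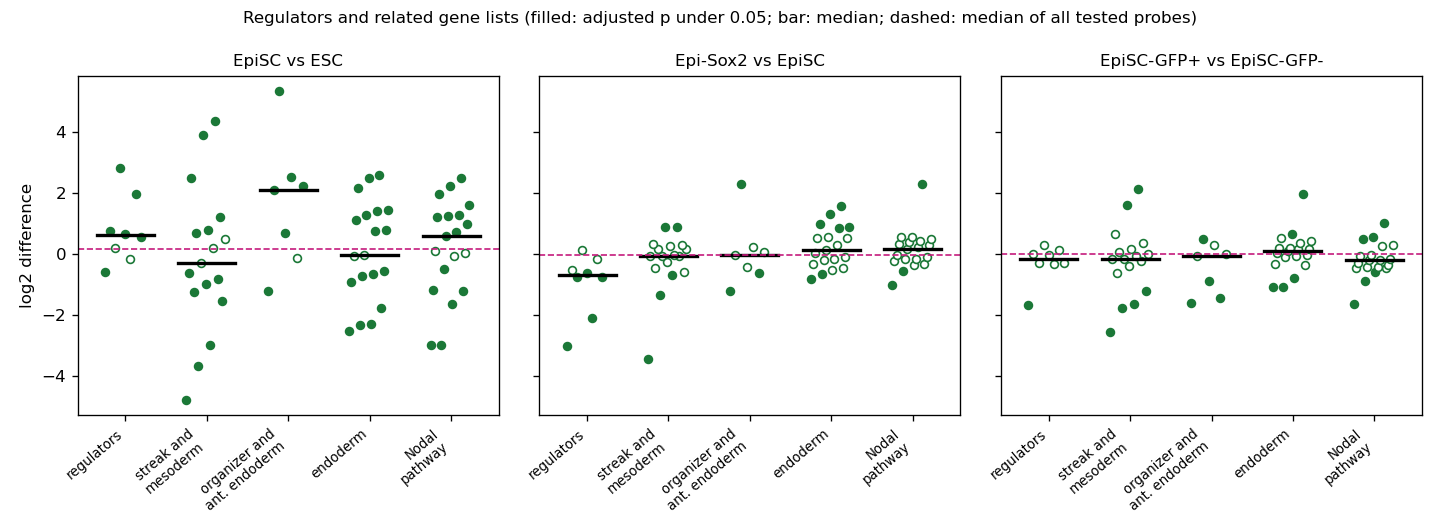
Log2 difference of each tested member probe and of each tested gene of 4 related lists in 3 comparisons (panels), with filled points at an adjusted p under 0.05, bars at list medians and the dashed line at the median of all tested probes. In EpiSC against ESC the organizer bar (median 2.09) stands for the 7 tested of 15 annotated genes. The detection filter bears on the list medians there, so nothing is read from their order. The 4 related lists have filled points on both sides of the line in Epi-Sox2 against EpiSC.

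T9-EpiSC, with 1 array, has no spread of its own, and its differences carry no test. Its signal was above all 10 other arrays for Lhx1, Foxa2 probe ILMN_1246216, Cer1, Gata6, Hhex and Mixl1 probe ILMN_2920173. Foxa2 was 1.89 log2 units above the EpiSC mean and at least 3.36-fold above ESC. Cer1 was 1.34 above EpiSC and at least 2.64-fold above ESC, and Hhex was 1.06 above EpiSC and 0.88 above ESC. Lhx1 differed from EpiSC by 0.62 and Gata6 by 0.44. Gsc (-0.38), Mixl1 probe ILMN_1245893 (-0.16) and Eomes (0.08) lay close to the EpiSC mean.

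Related genes were detected in number on the T9-EpiSC array. It detected 12 of 15 annotated organizer, node and anterior endoderm genes, against at most 6 on any other array, and 17 of 23 streak and mesoderm genes, against at most 12. Of 28 endoderm genes it detected 16, against 15 on each ESC array, and of 24 Nodal pathway genes 18, as did the ESC and Epi-Sox2 arrays. This array also had the most detected probes of all kinds (11675). Its summed organizer signal (7083) and endoderm signal (17530) were below those of EpiSC (7303 to 8272 and 23930 to 24680). Its summed streak signal (4418) was above all other groups (at most 2740). Of 86 annotated genes of the 4 lists, 9 (10.5%) were detected on this array and on no other. Of all 25697 probes, 408 (1.59%) were. A list gene stands for its brightest probe, while the second share counts every probe. The lists were also written with earlier results known, so nothing is read from this contrast. The brightest of the 9, chosen here after their values were seen, were Shh, the signal of the node and notochord (7.40, at most 4.97 elsewhere), and the forkhead gene Foxa1 (6.63, at most 4.77). Mesp1, a factor of nascent mesoderm, read 5.68 (at most 4.50 elsewhere), the Bmp inhibitor gene Nog 5.60 (4.99), the mesoderm factor gene Tbx6 5.16 (4.83) and Noto, a homeobox gene of the node, 4.95 (4.63). The remaining 3 were only just detected, with Dkk1 at 4.91 (at most 4.73 elsewhere), Frzb at 4.86 (4.79) and Pmepa1 at 4.89, below its highest undetected signal elsewhere (5.09). Its label names fibroblasts as the layer the cells grew on. The summed signal of 19 fibroblast markers was 3387 in T9-EpiSC, 2133 to 2336 in Epi-Sox2, 1417 to 1467 in EpiSC-GFP+, 1556 to 1633 in EpiSC-GFP-, 1145 to 1218 in EpiSC, and 2728 to 2835 in ESC. T9-EpiSC detected 10 of the 19, among them Col1a1 (5.55), against 12 on each ESC array and at most 9 on the rest. Col1a2 was detected on no array of the series and Col3a1 on the ESC arrays only, so neither tells T9-EpiSC from the other epiblast stem cells. The part of fibroblast RNA in the member signals was not tested.

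**Figure D4:**
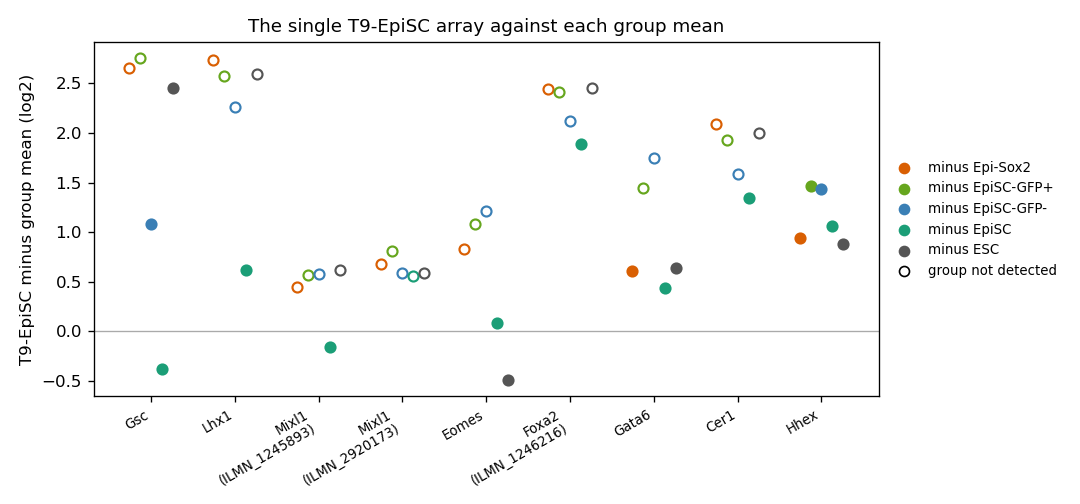
Signal of the T9-EpiSC array minus the mean of each other group (log2) for the 9 member probes detected on it, with open points where that group did not detect the probe. Foxa2, Cer1 and Hhex lie above 0 against every group, and Gsc and Eomes lie near 0 or below against EpiSC.

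Across the 11 arrays, the genes most like Lhx1 were Sox17, an endoderm factor (Pearson r = 0.947), Draxin (0.945) and Pifo (0.923). Those most like Foxa2 were Dynlrb2 (0.982), Zeb2 (0.969) and Usp3 (0.957), and those most like Cer1 were Poglut2 (0.972), Slc35f1 (0.959) and Usp3 (0.954). Gsc was most like Chst7 (0.956), Get1 (0.946) and Hint1 (0.940). Eomes was most like Cox20 (0.990), Cops4 (0.986) and Cnih1 (0.978), Gata6 like Atp1b3 (0.992), Exosc2 (0.974) and Gorasp2 (0.965), and Hhex like Rbm4b (0.957), Sh3bgrl (0.956) and Tpm3 (0.945). Among the members, Cer1 and Foxa2 correlated at 0.95, Gsc and Lhx1 at 0.88, and Gsc and Eomes at 0.24. The 11 points share 6 groups and, for Foxa2 and Cer1, 1 bright array, so these values only describe likeness.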

How the data were processed

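Per the labels' protocols, labelled cRNA was made from 300 ng of total RNA with 12 h of in vitro transcription. The deposited table holds, per the file headers, a bead intensity and a detection p-value for each of 25697 probes on 11 arrays. The design text calls it not normalized, and the submitters' processing notes name BeadStudio 3.2, RMA and lumi. The log2 values in the authors' series matrix cover these probes, rank as the intensities do (Spearman 1) and have a median of 2.64 on each array. How the authors removed background there is not given in the sources used here, and whether its scale was otherwise shifted stays unknown.

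Intensities were corrected with normexp (nec in limma 3.58.1, R 4.3.3, offset 16), quantile-normalized and taken to log2. Probes detected (p-value under 0.01) on 2 arrays or more, 13048 in all, entered limma's linear model with empirical Bayes, in which the 11 arrays gave a mean for each group. Residual degrees of freedom were 5 and prior ones 4.87, and p-values were adjusted by Benjamini-Hochberg over all of these probes, at 0.05. Fold bounds are against the lowest detected signal. Symbols came from the platform annotation (23978 probes with 1 symbol, 0 with several, 1719 with none), updated through 23962 matched Entrez numbers. A list gene stands for its brightest probe.

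All members are named, with every probe. Of each related list up to 4 called genes with the largest difference are named per main comparison, and for each tested member whose group means span at least 1 log2 unit the 3 most correlated genes. The members and lists were chosen with earlier results of these data known. Alternatives were no background correction, an offset of 50, cyclic loess, the authors' values, no detection filter, 1 probe per gene, T9-EpiSC left out, each array left out in turn, and a block for the replicate number. The linear model was tested on simulated data. Arrays within a group are labelled as biological replicates, and same-numbered arrays of different groups did not deviate together (r of -0.02 to 0.08 over 10 pairs of groups), so no pairing was used. No slide is named in the tables, so it could not enter as a block.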

Additional observations from a re-analysis of the deposited data

Results flagged for a closer look

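T9-EpiSC entered no test, and 5 member probes that neither ESC array detected were detected on it. Its signal minus the ESC mean, in log2 units, was 2.59 for Lhx1, 2.45 for Foxa2 probe ILMN_1246216, 2.00 for Cer1, 0.62 for Mixl1 probe ILMN_1245893 and 0.59 for Mixl1 probe ILMN_2920173. Since ESC did not detect these probes, the differences are no fold changes: only bounds of at least 4.09-fold for Lhx1, 3.36-fold for Foxa2, 2.64-fold for Cer1 and 1.06-fold for Mixl1 probe ILMN_2920173 can be given, and none for Mixl1 probe ILMN_1245893. These are single values without a replicate. The second Foxa2 probe was not detected on this array (4.22).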

How the results depend on the processing

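Of 668 values of single member probes under the alternatives, 623 kept their side of the threshold, 25 lost a call, 20 gained one and 0 changed direction where called. With cyclic loess the number of members called was 2 in Epi-Sox2 against ESC (1 as reported), 5 in EpiSC-GFP+ against ESC (3 as reported) and 7 in EpiSC-GFP- against ESC (4 as reported), and the cause was not tested. Leaving out 1 array gave 4 to 5 called members in EpiSC against ESC, 3 to 4 in Epi-Sox2 against EpiSC, 1 to 3 in EpiSC-GFP+ against EpiSC-GFP-, 1 in Epi-Sox2 against ESC, 2 to 3 in EpiSC-GFP+ against ESC, 3 to 7 in EpiSC-GFP- against ESC and 5 to 7 in the E3 fractions against EpiSC. With the replicate number as a block, 5 members were called in EpiSC-GFP- against ESC (4 without it), Cer1 being added (adjusted p = 0.0359), and in the E3 fractions against EpiSC Cer1 was gained (0.0309) and Hhex lost (0.0537), leaving 6; the block changed no other call. Over all probes, the calls in Epi-Sox2 against EpiSC numbered 2250 as reported, 1453 with the authors' values and 734 to 2302 with 1 array of any group left out, and those in EpiSC-GFP+ against EpiSC-GFP- 3187 as reported and 1639 to 3794 with 1 array of any group left out. The lowest detected signal, 4.77 to 5.38 by array and highest in EpiSC-GFP-, sets how small a member signal these arrays can show.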
